A study of Homo sapiens with 18 samples.

Results

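NFE2L1, NFE2L2 and NFE2L3 encode transcription factors of the cap'n'collar family, and HNRNPA2B1 encodes an RNA-binding protein and overlaps NFE2L3 on the opposite strand of the genome. The 4 genes were taken by name, with the interval values of each gene ID summed and the IDs matched to symbols, from the 12755 gene IDs of the table. Newly made RNA was measured in 18 libraries of MDA-MB-453, an established luminal breast cancer cell line. Of the 6 groups, with 3 libraries each, 3 received the vehicle DMSO and 3 received JQ1-VHL, a BET degrader, for 3 hours. Each treatment gave a group of total RNA, of nuclear RNA and of cytoplasmic RNA, separated with 1 mg/ml digitonin. All 18 libraries shared a pulse of 0.1 mM 4-thiouridine in the last 60 min, selection of polyadenylated RNA, and 150 bp paired reads. The sample titles call the drug dBET, and the series description calls it JQ1-VHL.

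Cap'n'collar factors bind DNA as dimers with small MAF proteins, at antioxidant response elements and related sites. NFE2L2 (NRF2) is held at low levels by KEAP1 and drives antioxidant and detoxifying genes. NFE2L1 (NRF1) is made in the endoplasmic reticulum, is extracted by the ATPase VCP, and drives proteasome subunit genes when the proteasome is short. NFE2L3 (NRF3) is the least studied of the family and is, like NFE2L1, tied to the endoplasmic reticulum. HNRNPA2B1 makes hnRNP A2 and B1, which bind nascent and mature RNA and take part in splicing and RNA transport. BET proteins read acetylated histones and help RNA polymerase II to leave the promoter, and a degrader such as JQ1-VHL removes them.

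A value in units is the number of reads with T-to-C changes, which mark RNA made during the pulse, divided by a factor for each library. Per the table's name that factor comes from ERCC RNA, which the labels' protocols say was added by mass of RNA, so units are per mass of RNA and not per cell. A library held between 1.58 and 6.77 M of these reads (M is 1e06), and a single read counted for 0.470 to 2.75 units. The drug comparisons were also made after rescaling the libraries to a common median over genes, because on the ERCC scale the median log2 change of all 10191 genes tested was -0.49 in total, -1.82 in nuclear and -0.02 in cytoplasmic RNA. After rescaling, these medians were -0.19, -0.01 and 0.05. Of 8 luminal markers, all were tested, and in total RNA under DMSO KRT8 had a mean of 8919.6 units and ERBB2 of 6188 units. Of 12 markers of other cell types, COL1A1 and ALB were tested, with means of 483 and 28.6 units in the same libraries, TP63 was below the filter and the other 9 were not analysed here. In bulk RNA, fewer cells and less RNA per cell cannot be told apart. The labels do not name separate cultures for the 3 libraries of a group, so each p-value is about the spread of these libraries, which may be technical. On the ERCC scale the fit took the spread of a gene from a trend over all genes. SEs and p-values on that scale are thus not from the gene's own libraries alone.

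The promoter windows of the 4 genes are shown because 3 of them share a motif class that HNRNPA2B1 lacks, and because the 3 NFE2L genes did not move together. They were taken from RefSeq (GRCh38.p14), and all 4 genes matched. Each holds the 250 bases before the gene's start on the gene's own strand, 5′ to 3′. The windows lie at chr17:48048109-48048358 (plus strand) for NFE2L1, chr2:177264728-177264977 (minus strand) for NFE2L2, chr7:26151948-26152197 (plus strand) for NFE2L3 and chr7:26200747-26200996 (minus strand) for HNRNPA2B1. The windows of NFE2L2 and HNRNPA2B1 lie inside the annotated span of their gene, because each gene has transcripts that start further out. The end of the NFE2L1 window also runs past that gene's annotated start at 48048329. NFE2L1 and NFE2L2 each have 2 RefSeq windows, of which the outermost is shown. Capitals mark matches, on either strand, to any of 7 motifs searched: the TATA box (TATAAA), the CCAAT box (by its name), the E-box (CACGTG), the core of an antioxidant response element (TGACNNNGC), the AP-1 site (TGANTCA), the GC box (GGGCGG) and the ETS core (CCGGAAG).
NFE2L1: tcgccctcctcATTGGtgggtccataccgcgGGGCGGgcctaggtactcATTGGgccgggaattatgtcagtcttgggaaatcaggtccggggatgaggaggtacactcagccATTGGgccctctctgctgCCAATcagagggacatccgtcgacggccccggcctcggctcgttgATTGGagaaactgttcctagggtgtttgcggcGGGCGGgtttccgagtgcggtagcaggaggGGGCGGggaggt
NFE2L2: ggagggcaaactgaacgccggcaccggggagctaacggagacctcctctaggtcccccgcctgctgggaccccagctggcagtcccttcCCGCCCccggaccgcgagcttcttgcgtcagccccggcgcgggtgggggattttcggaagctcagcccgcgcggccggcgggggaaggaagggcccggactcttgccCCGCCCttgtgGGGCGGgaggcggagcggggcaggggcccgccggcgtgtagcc
NFE2L3: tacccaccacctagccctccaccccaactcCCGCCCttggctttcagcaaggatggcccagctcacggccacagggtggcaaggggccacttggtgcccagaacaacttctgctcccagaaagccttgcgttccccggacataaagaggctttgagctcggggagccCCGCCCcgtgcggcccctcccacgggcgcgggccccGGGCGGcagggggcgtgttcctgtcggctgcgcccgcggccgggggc
HNRNPA2B1: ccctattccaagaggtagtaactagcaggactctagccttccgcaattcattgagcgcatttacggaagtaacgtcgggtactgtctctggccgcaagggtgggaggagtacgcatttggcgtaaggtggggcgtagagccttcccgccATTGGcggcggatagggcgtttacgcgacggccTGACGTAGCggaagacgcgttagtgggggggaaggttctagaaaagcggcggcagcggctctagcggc

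The NFE2L1, NFE2L2 and NFE2L3 windows each held 3 GC boxes, a motif present in 42.6% of all 35116 promoter windows of this length. The NFE2L1 window also held 5 CCAAT boxes, a motif in 32% of windows. The HNRNPA2B1 window held 1 CCAAT box and 1 TGACNNNGC match, the latter in 10.9% of windows. NFE2L2 had the highest GC content at 74.8%, followed by NFE2L3 at 70.8%, NFE2L1 at 62.8% and HNRNPA2B1 at 59.2%, against a median of 58% over all windows. The matches are descriptions of the letters, and binding was not measured here.

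By the GENCODE 29 annotation of GRCh38, NFE2L3 (ENSG00000050344) lies at chr7:26152240-26187125 on the plus strand and HNRNPA2B1 (ENSG00000122566) at chr7:26173057-26201529 on the minus strand. The bodies of the 2 genes overlap by 14069 bp. The overlap comes from 1 long HNRNPA2B1 transcript, HNRNPA2B1-208, which ends inside NFE2L3, and the other HNRNPA2B1 transcripts end at 26189927 or beyond, outside NFE2L3. At its other end HNRNPA2B1 overlaps CBX3, which encodes a heterochromatin protein, by 368 bp. NFE2L1 (ENSG00000082641, chr17:48048329-48061487, plus strand) lies 8564 bp from CBX1, and NFE2L2 (ENSG00000116044, chr2:177227595-177392697, minus strand) lies 3636 bp from HNRNPA3, so that members of the CBX, HNRNPA and NFE2L families are neighbours at more than one locus. The deposited table was made on hg19, so these positions annotate the gene IDs and do not place reads. The strand counted is not given in the sources used here, and reads from the stretch shared by NFE2L3 and HNRNPA2B1 cannot be told apart without it.

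NFE2L3 rose in every fraction under JQ1-VHL. In total RNA the 3 DMSO libraries had 149, 30.1 and 48.7 units and the 3 JQ1-VHL libraries had 1192, 729 and 828 units. In nuclear RNA the values were 131, 66.2 and 52.7 units under DMSO and 938, 1488 and 158 units under JQ1-VHL. In cytoplasmic RNA they were 9.91, 2.76 and 22.0 units under DMSO, from 6, 5 and 8 reads, and 293, 411 and 74.0 units under JQ1-VHL, from 140, 191 and 53 reads. In each fraction all 3 JQ1-VHL libraries were above all 3 DMSO libraries, in units and in reads per M recovered reads (RPM). Groups that do not overlap in this direction, in units, were found for 1.26% of genes in total, 0.353% in nuclear and 1.37% in cytoplasmic RNA, and in RPM for 7.96%, 11.4% and 3.05%. The lowest JQ1-VHL nuclear library, replicate 3, was also the lowest JQ1-VHL nuclear library for the other 3 genes.

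The mean of NFE2L3 went from 75.9 ± 64.0 to 916 ± 243 units in total RNA (SD, n = 3 libraries a group), a ratio of 12.1. In cytoplasmic RNA it went from 11.6 ± 9.74 to 259 ± 171 units, a ratio of 22.4. The fitted log2 change was 3.87 ± 0.89 in total (SE, adjusted p = 0.0065), 2.95 ± 0.89 in nuclear (adjusted p = 0.0094) and 4.41 ± 0.89 in cytoplasmic RNA (adjusted p = 0.00046), by limma over all genes with Benjamini-Hochberg adjustment. In order of log2 change from the highest, NFE2L3 was number 15 in total, 12 in nuclear and 3 in cytoplasmic RNA among the 10191 genes. After rescaling, the changes were 4.16 ± 0.36, 4.82 ± 0.36 and 4.49 ± 0.36, with adjusted p of 1.5e-06, 1.1e-07 and 7.2e-07. On the ERCC scale the call in total RNA was lost without JQ1-VHL total replicate 3 (adjusted p = 0.064), and the nuclear call without JQ1-VHL nuclear replicate 2 (log2 change 2.31, adjusted p = 0.055). The rescaled calls were kept without each library in turn, as was the cytoplasmic call on the ERCC scale.

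Of the 4 genes, NFE2L3 was the one called higher on the ERCC scale, and it was called in all 3 fractions. The share of all genes called higher there was 0.245% in total, 0.177% in nuclear and 0.226% in cytoplasmic RNA. After rescaling, 3 of the 4 genes were called higher in total RNA (12.2% of all genes), 3 in nuclear RNA (18.2%) and 2 in cytoplasmic RNA (14.8%). The plot of units by library shows the 4 genes side by side.

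**Figure D1:**
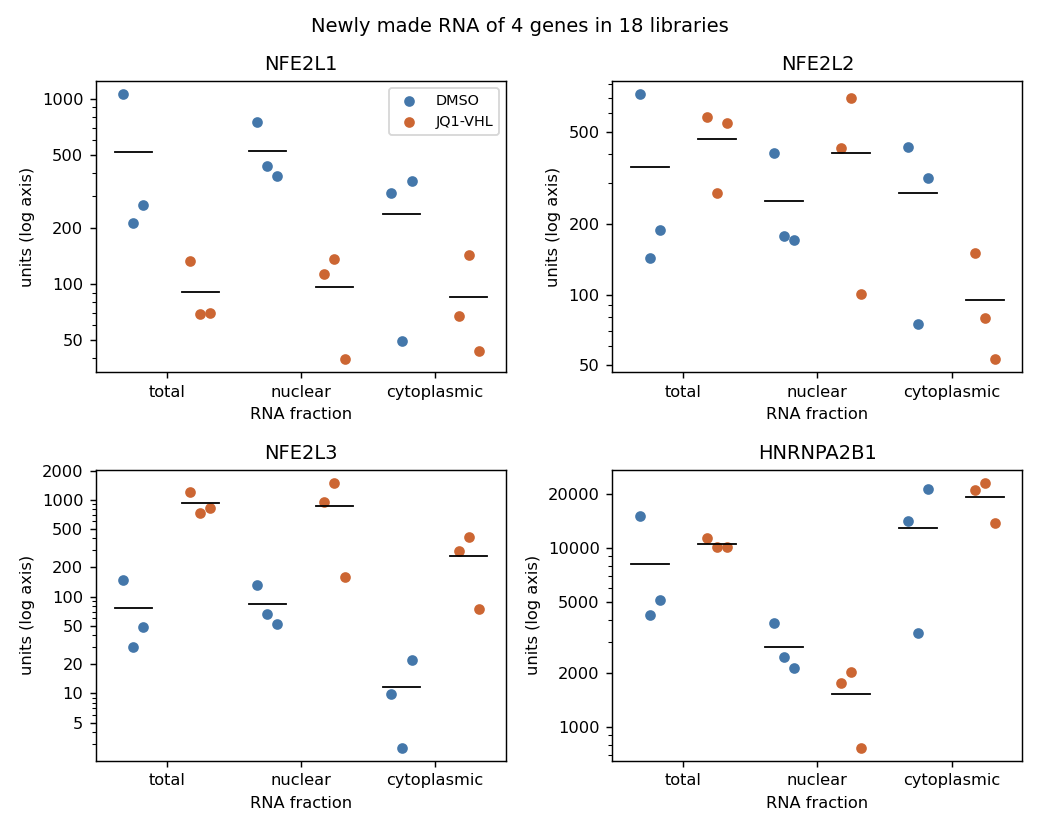
Units of newly made RNA (log axis) of NFE2L1, NFE2L2, NFE2L3 and HNRNPA2B1 in the 18 libraries, by RNA fraction; points are libraries, blue for DMSO and orange for JQ1-VHL, and black lines are means of 3 libraries. NFE2L3 is higher in all JQ1-VHL libraries of each fraction, NFE2L1 is lower in total and nuclear RNA with no overlap, and NFE2L2 and HNRNPA2B1 overlap in total and cytoplasmic RNA.

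Ordered by mean units, NFE2L3 was highest in JQ1-VHL total RNA, then JQ1-VHL nuclear and JQ1-VHL cytoplasmic RNA, then DMSO nuclear, DMSO total and DMSO cytoplasmic RNA. Neighbours in this order overlapped, except that all DMSO cytoplasmic libraries (at most 22.0 units) were below all DMSO total libraries (at least 30.1 units). Under DMSO, nuclear NFE2L3 RNA exceeded cytoplasmic by 2.99 ± 0.89 on the log2 scale (adjusted p = 0.0091 by limma), or 2.85 after rescaling (adjusted p = 2.1e-06). The ERCC call was lost without DMSO nuclear replicate 1 (2.61, adjusted p = 0.075). Under JQ1-VHL the difference was 1.54 (adjusted p = 0.18), or 3.18 after rescaling (adjusted p = 4.7e-07). The drug effect in the nucleus minus that in the cytoplasm was -1.46 (adjusted p = 0.45), and 0.33 after rescaling (adjusted p = 0.76), so a difference between the fractions was not detected for NFE2L3 and its sign depended on the scale.

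A ratio of 2 genes within a library does not depend on that library's factor. Per 100 units of HNRNPA2B1, NFE2L3 had 0.989, 0.709 and 0.952 units in the DMSO total libraries and 10.5, 7.14 and 8.11 in the JQ1-VHL total libraries. In nuclear RNA it had 3.42, 2.67 and 2.45 under DMSO and 53.0, 72.6 and 20.5 under JQ1-VHL. In cytoplasmic RNA it had 0.0696, 0.0824 and 0.103 under DMSO and 1.38, 1.77 and 0.538 under JQ1-VHL. Every JQ1-VHL library was above every DMSO library of its fraction, as the plot of the ratio shows. These ratios are not corrected for the lengths of the 2 genes and are compared only between libraries.

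The NFE2L3 to HNRNPA2B1 ratio rose by 3.25 on the log2 scale in total RNA, by 3.91 in nuclear RNA and by 3.50 in cytoplasmic RNA, which is 9.51, 15.1 and 11.3 times. The exact two-sided permutation p was 0.1 in each fraction, the smallest that 3 libraries against 3 allow. Without each library in turn, the change ranged from 3.10 to 3.37 in total, from 3.53 to 4.44 in nuclear and from 3.16 to 4.01 in cytoplasmic RNA. Within pairs of libraries that share a batch number it ranged from 3.06 to 3.40, from 3.05 to 4.75 and from 2.34 to 4.18. Across the 18 rescaled libraries the Pearson correlation of NFE2L3 with HNRNPA2B1 was 0.01, and that of HNRNPA2B1 with CBX3, its neighbour on the other side, was 0.97. These are descriptions over libraries that share their depth and treatment, and they pool the fractions. Under DMSO the rescaled nuclear minus cytoplasmic difference was 2.85 for NFE2L3, -2.05 for HNRNPA2B1 and -3.28 for CBX3. NFE2L3 and HNRNPA2B1 were both called higher under JQ1-VHL in each fraction after rescaling.

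**Figure D2:**
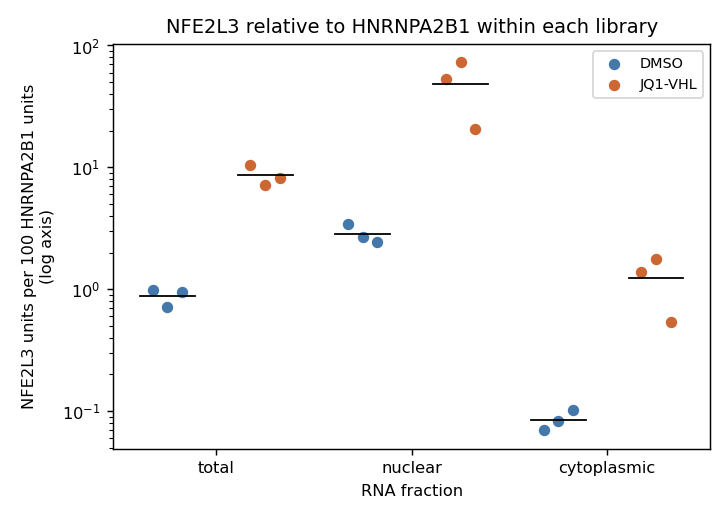
NFE2L3 units per 100 HNRNPA2B1 units (log axis) in each of the 18 libraries, by RNA fraction; blue points are DMSO, orange points are JQ1-VHL and black lines are means of 3 libraries. The JQ1-VHL libraries lie above the DMSO libraries in each fraction, from 7.14 to 10.5 against 0.709 to 0.989 in total RNA.

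The table splits each gene ID into numbered intervals, and what an interval is on the transcript is not given in the sources used here. Across 727 minus-strand genes with as many intervals as gaps between exons, interval reads were compared with gap lengths. They followed gap lengths better when numbered along the genome (median Spearman 0.48) than along the gene (0.04). None of the 4 genes matched so. NFE2L1, NFE2L2, NFE2L3 and HNRNPA2B1 have 14, 8, 4 and 8 intervals against 15, 14, 3 and 9 gaps. For them, low numbers are only assumed to lie at low coordinates, which was not tested. NFE2L3 has 4 intervals, and interval 1 would then be nearest its start and farthest from HNRNPA2B1. Interval 1 held 67.6%, 68.8% and 75.0% of the gene's reads in the DMSO total libraries and 88.6%, 89.8% and 89.9% in the JQ1-VHL total libraries. In nuclear RNA the share went from 66.2%, 84.7% and 61.6% to 90.0%, 91.4% and 93.7%, again with no overlap. How often interval shares separate in this way over all genes was not counted, here or for the other genes below. In cytoplasmic RNA the DMSO libraries held 5 to 8 reads of the gene, and the shares of 66.7%, 40.0% and 100% spanned those of the JQ1-VHL libraries, 91.4%, 77.5% and 69.8%.

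NFE2L3 interval 1 had a mean of 58.5 ± 27.3 units in DMSO nuclear and 784 ± 608 units in JQ1-VHL nuclear RNA. It was called higher in all 3 fractions on the ERCC scale, with log2 changes of 4.20 in total (adjusted p = 0.00026), 3.33 in nuclear (adjusted p = 0.0021) and 4.53 in cytoplasmic RNA (adjusted p = 4.4e-05), by limma over 48618 interval rows. The shares of all intervals called higher were 0.0967%, 0.0555% and 0.130%. Interval 3 was also called in cytoplasmic RNA (3.47, adjusted p = 0.014), a call that was lost without DMSO cytoplasmic replicate 3 (adjusted p = 0.14) or JQ1-VHL cytoplasmic replicate 2 (adjusted p = 0.16). With the replicate number as a block, interval 2 was called in total (2.77, adjusted p = 0.049) and cytoplasmic RNA (3.39, adjusted p = 0.016), where the fit without it gave adjusted p of 0.11 and 0.052. After rescaling, intervals 1 to 3 were all called higher in each fraction, with nuclear log2 changes of 5.19, 3.68 and 2.86, beside 11.5% of all intervals in total, 23.8% in nuclear and 10.6% in cytoplasmic RNA. Interval 4, which was below the filter, held 18 reads over the DMSO and 32 over the JQ1-VHL nuclear libraries.

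HNRNPA2B1 was the most deeply read of the 4 genes, with 1621 to 10774 reads a library. In total RNA it had 15062, 4242 and 5115 units under DMSO and 11348, 10219.6 and 10206 units under JQ1-VHL. In nuclear RNA it had 3836, 2484 and 2153 units under DMSO and 1769.7, 2049 and 770.2 units under JQ1-VHL. In cytoplasmic RNA it had 14235, 3352 and 21458 units under DMSO and 21177, 23173 and 13758 units under JQ1-VHL. The groups overlapped in total and cytoplasmic RNA, and all JQ1-VHL nuclear libraries were below all DMSO nuclear libraries, as were those of 71.2% of genes. In RPM the same nuclear libraries ran the other way, 896 ± 95.2 under DMSO and 1062 ± 81.8 under JQ1-VHL, with no overlap, as for 11.4% of genes.

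HNRNPA2B1 thus had no direction in nuclear RNA that held on both scales. Its log2 change on the ERCC scale was 0.62 ± 0.77 in total (adjusted p = 0.86), -0.96 ± 0.77 in nuclear (adjusted p = 0.28) and 0.91 ± 0.77 in cytoplasmic RNA (adjusted p = 0.82). After rescaling it was called higher in all 3, at 0.92 ± 0.18 (adjusted p = 0.0019), 0.91 ± 0.18 (adjusted p = 0.00098) and 0.97 ± 0.18 (adjusted p = 0.00088). CBX3 moved in the same range, with rescaled changes of 0.86 (adjusted p = 0.003), 1.01 (adjusted p = 0.00055) and 0.73 (adjusted p = 0.0062), and 0.56, -0.86 and 0.67 on the ERCC scale (adjusted p = 0.89, 0.34 and 0.89).

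By mean units, HNRNPA2B1 was highest in JQ1-VHL cytoplasmic RNA, then in DMSO cytoplasmic, JQ1-VHL total, DMSO total, DMSO nuclear and JQ1-VHL nuclear RNA. Neighbours among the first 4 groups overlapped, and the DMSO nuclear and JQ1-VHL nuclear groups each lay below the group ranked above. Its cytoplasmic RNA exceeded its nuclear RNA, while under JQ1-VHL the 3 NFE2L genes had positive nuclear differences. The nuclear minus cytoplasmic difference of HNRNPA2B1 was -1.88 under DMSO (adjusted p = 0.064), or -2.05 after rescaling (adjusted p = 1.5e-08). Under JQ1-VHL it was -3.75 (adjusted p = 2.5e-05), or -2.10 after rescaling (adjusted p = 1.2e-08). Among the 4 genes, 1 was called higher in the nucleus under DMSO on the ERCC scale (NFE2L3, beside 14.7% of genes higher and 5.92% lower) and 1 was called lower under JQ1-VHL (HNRNPA2B1, beside 28.8% of genes lower and 3.01% higher). After rescaling, 2 were called higher and 1 lower under DMSO (33.0% and 23.8% of genes), and 3 higher and 1 lower under JQ1-VHL (38.7% and 26.0%).

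The intervals of HNRNPA2B1 did not move alike. Intervals 7 and 8, which by the numbering would lie nearest the start of this minus-strand gene, together held 9.07%, 5.88% and 6.09% of its reads in the DMSO nuclear libraries. Under JQ1-VHL they held 1.92%, 2.27% and 0.864%, below all DMSO values. In total RNA their share went from 2.19% ± 0.194 to 0.560% ± 0.185 (SD, n = 3), and in cytoplasmic RNA from 0.764% ± 0.284 to 0.487% ± 0.0810. Intervals 4 to 6 took a larger share of nuclear reads, 59.7% ± 4.70 under DMSO and 74.8% ± 2.45 under JQ1-VHL, with no overlap. These sets of intervals were chosen after their values were seen, and how often such shares separate over all genes was not counted.

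HNRNPA2B1 interval 7 had 180.1, 71.3 and 74.3 units in the DMSO nuclear libraries and 16.0, 23.2 and 3.8 in the JQ1-VHL nuclear libraries. Both intervals 7 and 8 were called lower in nuclear RNA, at -2.99 (adjusted p = 0.0072) and -2.90 (adjusted p = 0.0089) by limma, as were 22.6% of all intervals. After rescaling both were still called lower, at -1.23 (adjusted p = 0.026) and -1.17 (adjusted p = 0.018), beside 8.89% of all intervals. Without DMSO nuclear replicate 1 the ERCC-scale adjusted p was 0.12 and 0.13, and without JQ1-VHL nuclear replicate 3 it was 0.16 and 0.21. Intervals 2, 4, 5 and 6 were called higher in nuclear RNA after rescaling, by 0.87 to 1.30, beside 23.8% of all intervals. These 4 intervals had, on the ERCC scale, negative changes that missed the threshold (-0.57 to -0.99).

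**Figure D3:**
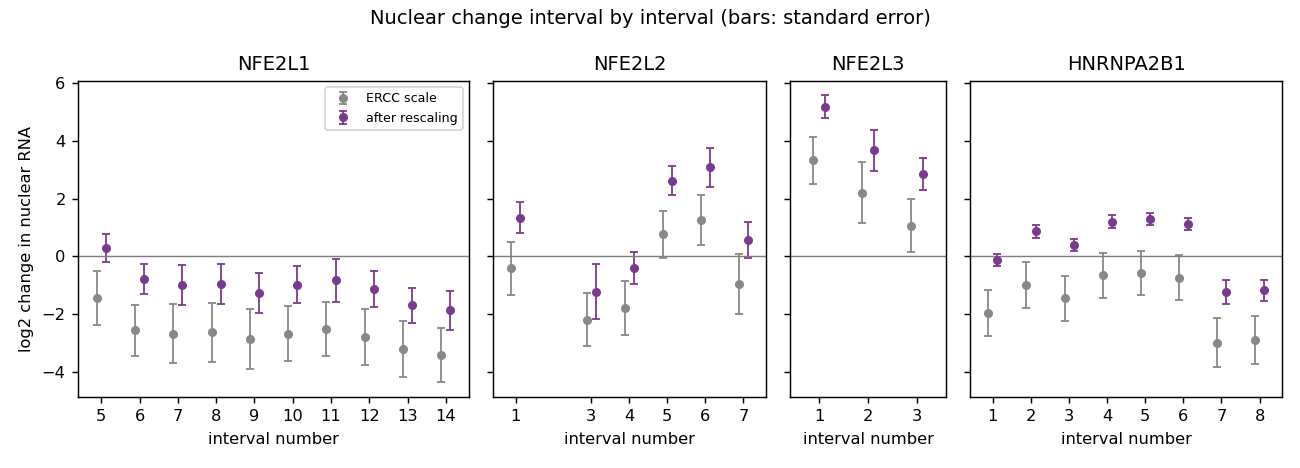
Fitted log2 change of JQ1-VHL against DMSO in nuclear RNA for each tested interval of the 4 genes, on the ERCC scale (grey) and after rescaling (purple); points are estimates and bars are standard errors. NFE2L3 interval 1 is at 3.33 and 5.19, HNRNPA2B1 intervals 7 and 8 are below 0 on both scales, and NFE2L1 interval 5 lies above its intervals 6 to 14.

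NFE2L1 was lower under JQ1-VHL in total and nuclear RNA. In total RNA it had 1059, 214 and 269 units under DMSO and 133, 68.6 and 69.6 units under JQ1-VHL. In nuclear RNA it had 746, 433 and 383 units under DMSO and 114, 137 and 39.4 units under JQ1-VHL. In cytoplasmic RNA it had 309, 49.2 and 358 units under DMSO and 67.0, 144 and 43.3 units under JQ1-VHL. The groups did not overlap in total and nuclear RNA, where 24.8% and 71.2% of genes were likewise lower in all libraries (5.98% in cytoplasmic RNA). In cytoplasmic RNA, DMSO replicate 2 fell among the JQ1-VHL libraries. In RPM all JQ1-VHL libraries were below all DMSO libraries in each fraction, at 85.4 ± 11.0 against 15.7 ± 5.33 in total, 163 ± 8.27 against 64.6 ± 11.2 in nuclear and 27.4 ± 8.30 against 8.01 ± 3.39 in cytoplasmic RNA. In RPM 54.9%, 49.1% and 30.1% of genes were lower without overlap in the 3 fractions.

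The log2 change of NFE2L1 was -2.18 ± 0.88 in total RNA (adjusted p = 0.15), -2.53 ± 0.88 in nuclear RNA (adjusted p = 0.02) and -1.22 ± 0.88 in cytoplasmic RNA (adjusted p = 0.7) by limma on the ERCC scale. The nuclear fall was called beside 33.7% of all genes called lower, a share that was 2.79% in total and 3.67% in cytoplasmic RNA. That call was lost without DMSO nuclear replicate 1 (-2.24, adjusted p = 0.14), without JQ1-VHL nuclear replicate 3 (-1.99, adjusted p = 0.19) and after rescaling (-0.68 ± 0.26, adjusted p = 0.052). After rescaling, the falls in total RNA (-1.88 ± 0.26, adjusted p = 0.00018) and cytoplasmic RNA (-1.16 ± 0.26, adjusted p = 0.0032) were called, beside 18.4% and 15.9% of genes, and were kept without each library in turn. By mean units its 3 DMSO groups ranked above its 3 JQ1-VHL groups, with nuclear above total above cytoplasmic RNA under each treatment. Neighbouring groups in that order overlapped. The nuclear excess over cytoplasmic RNA was 1.49 under DMSO (adjusted p = 0.22) and 0.18 under JQ1-VHL (adjusted p = 0.9), or 1.33 (adjusted p = 0.00024) and 1.81 (adjusted p = 7.4e-06) after rescaling.

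Of the 14 intervals of NFE2L1, 10 passed the filter. On the ERCC scale 6 were called lower in total RNA, beside 4.24% of all intervals, and 9 in nuclear RNA, beside 22.6%. Rescaling left 9 called lower in total (11.6% of intervals), 2 in nuclear (8.89%) and 4 in cytoplasmic RNA (8.73%). Interval 14, the last, changed by -3.81 in total RNA (adjusted p = 0.0068) and by -3.43 in nuclear RNA (adjusted p = 0.0057), and with the replicate block also by -2.71 in cytoplasmic RNA (adjusted p = 0.043, against 0.091 without the block). The block also brought intervals 11 (-2.74, adjusted p = 0.029) and 13 (-2.90, adjusted p = 0.023) below the threshold in total RNA. Interval 5, the first of the 10 by number, differed in that it was called in no fraction on either scale, with changes of -0.44, -1.45 and -0.45 on the ERCC scale (adjusted p = 0.91, 0.24 and 0.9). Its share of the gene's reads was 7.79%, 5.56% and 4.25% in DMSO total RNA and 13.4%, 15.8% and 32.8% in JQ1-VHL total RNA. These did not overlap, and how often such shares separate over all genes was not counted. Intervals 1 and 2 had equal reads in 17 of 17 libraries and 7 and 8 in 11 of 16, so some reads may be counted in more than one interval and neighbouring intervals are not independent. The single-interval calls of NFE2L1 rest on few libraries: without DMSO nuclear replicate 1 the adjusted p of interval 14 in nuclear RNA was 0.1, and without JQ1-VHL total replicate 3 that in total RNA was 0.21.

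After rescaling, which sets each library to a common median over genes, the drug effect on NFE2L2 differed between nucleus and cytoplasm. On the ERCC scale no such difference was called for NFE2L2. In total RNA it had 723, 144 and 190.2 units under DMSO and 580.0, 273 and 544 units under JQ1-VHL. In nuclear RNA it had 405, 178 and 172 units under DMSO and 423, 695 and 100.3 units under JQ1-VHL. In cytoplasmic RNA it had 428, 75.1 and 317 units under DMSO and 151, 79.6 and 53.1 units under JQ1-VHL. In units the groups overlapped in all 3 fractions. In RPM all JQ1-VHL nuclear libraries were above all DMSO ones, 276, 341 and 133 against 83.3, 69.7 and 73.9, as were those of 11.4% of genes. In the cytoplasm all were below, 14.4, 6.57 and 7.0 against 49.6, 41.7 and 17.0, as were those of 30.1% of genes.

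On the ERCC scale the log2 change of NFE2L2 was 0.70 in total (adjusted p = 0.86), 0.42 in nuclear (adjusted p = 0.66) and -1.32 in cytoplasmic RNA (adjusted p = 0.61). After rescaling it rose by 2.28 ± 0.33 in the nucleus (adjusted p = 9.3e-05) and fell by 1.26 on the log2 scale in the cytoplasm (SE 0.33, adjusted p = 0.0085), and both calls were kept without each library in turn. Its rescaled rise in total RNA (1.00 ± 0.33, adjusted p = 0.029) was lost without any 1 of 5 of the 6 total libraries (adjusted p from 0.055 to 0.13) and kept without JQ1-VHL total replicate 2 (adjusted p = 0.022). The nuclear minus the cytoplasmic drug effect was 1.74 ± 1.21 on the ERCC scale (adjusted p = 0.39) and 3.54 ± 0.47 after rescaling (adjusted p = 0.00065). NFE2L2 was the 1 gene of the 4 for which this difference was called after rescaling, beside 1.44% of all genes called in that direction and 1.38% in the other. The plot of fitted changes shows its nuclear and cytoplasmic points on opposite sides of 0 on both scales.

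**Figure D4:**
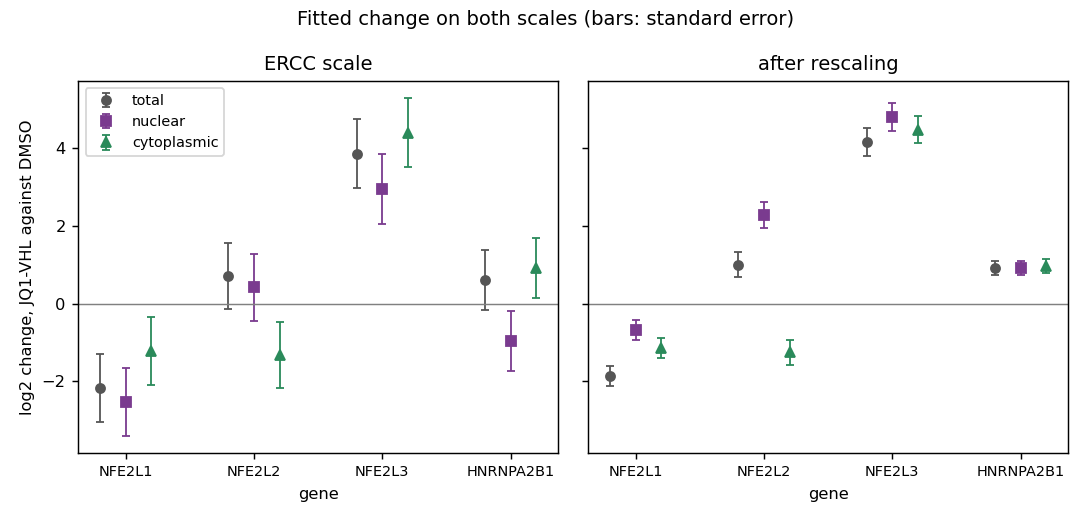
Fitted log2 change of JQ1-VHL against DMSO for the 4 genes in total (circles), nuclear (squares) and cytoplasmic RNA (triangles), on the ERCC scale (left) and after rescaling (right); bars are standard errors. NFE2L3 is above 0 in all fractions, from 2.95 to 4.41 at left and from 4.16 to 4.82 at right, and NFE2L2 is above 0 in nuclear and below 0 in cytoplasmic RNA.

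By mean units NFE2L2 ranked highest in JQ1-VHL total RNA (466 ± 168), then in JQ1-VHL nuclear (406 ± 298), DMSO total (352 ± 322), DMSO cytoplasmic (273 ± 180), DMSO nuclear (252 ± 133) and JQ1-VHL cytoplasmic RNA (94.5 ± 50.5). Neighbours in this order overlapped, except that the last group lay below all DMSO nuclear libraries. Under DMSO its nuclear and cytoplasmic RNA differed by 0.09 (adjusted p = 0.95), or -0.07 after rescaling (adjusted p = 0.86). Under JQ1-VHL the nuclear excess was 1.83 (adjusted p = 0.086), or 3.47 after rescaling (adjusted p = 5.4e-08).

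The reads of NFE2L2 fell in different intervals under the drug. Intervals 5 and 6 together held 65.0%, 59.0% and 62.3% of its reads in the DMSO nuclear libraries and 84.8%, 83.2% and 87.2% in the JQ1-VHL nuclear libraries. In total RNA they held 49.1% ± 7.75 under DMSO and 87.9% ± 3.39 under JQ1-VHL (SD, n = 3), and in cytoplasmic RNA 30.4% ± 6.43 and 45.4% ± 21.1. Intervals 3, 4 and 7 together went the other way, from 40.2% ± 8.02 to 4.58% ± 3.20 in total, from 20.7% ± 2.61 to 3.68% ± 1.98 in nuclear and from 63.6% ± 6.05 to 27.9% ± 3.63 in cytoplasmic RNA. The groups did not overlap for intervals 3, 4 and 7 in any fraction, nor for intervals 5 and 6 in total and nuclear RNA. How often interval values or shares separate in this way over all genes was not counted. As with HNRNPA2B1, these sets were chosen after their values were seen, and a share within a gene does not depend on the factor of the library.

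**Figure D5:**
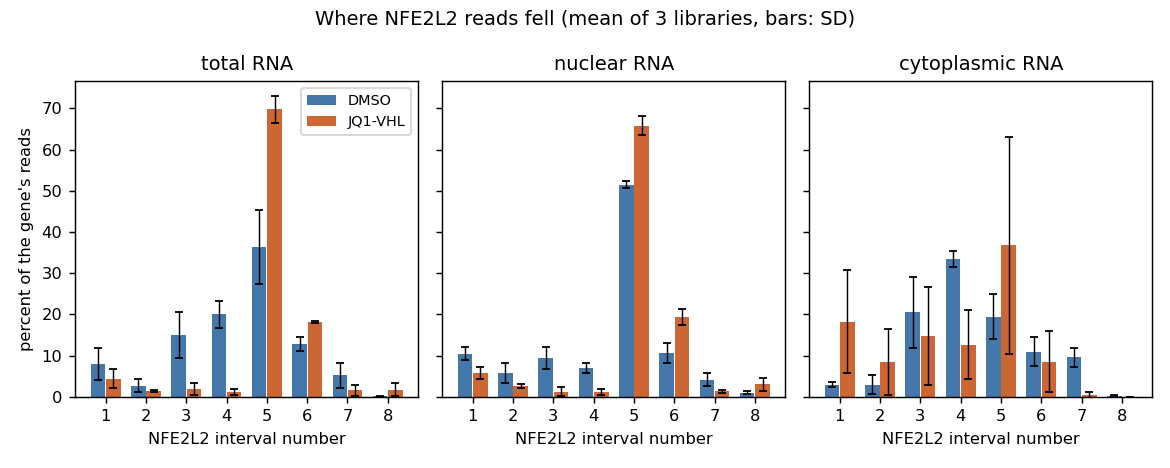
Share of NFE2L2 reads (percent) in each of its 8 intervals, in total, nuclear and cytoplasmic RNA; bars are means of 3 libraries, blue for DMSO and orange for JQ1-VHL, and error bars are SDs. Intervals 5 and 6 are taller under JQ1-VHL in total and nuclear RNA, and intervals 3, 4 and 7 are shorter.

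Of the 8 NFE2L2 intervals, 6 were tested. Interval 4 had 171, 27.6 and 32.7 units in DMSO total RNA and 6.87, 4.81 and 2.40 in JQ1-VHL total RNA, with no overlap. It was called lower in total RNA (-3.35, adjusted p = 0.017), beside 4.24% of all intervals. This call was lost without DMSO total replicate 1 (adjusted p = 0.34), JQ1-VHL total replicate 2 (adjusted p = 0.069) or JQ1-VHL total replicate 3 (adjusted p = 0.16). After rescaling interval 4 was lower in total (-3.03, adjusted p = 0.0022) and cytoplasmic RNA (-2.72, adjusted p = 0.003), beside 11.6% and 8.73% of all intervals. With the replicate block on the ERCC scale interval 4 was also lower in the cytoplasm (-2.79, adjusted p = 0.033, against 0.071 without the block). Interval 7 was called lower in cytoplasmic RNA (-3.90, adjusted p = 0.014), beside 2.71% of all intervals, where the JQ1-VHL libraries held 1, 0 and 0 reads against 20, 12 and 14 under DMSO. That call was lost without DMSO cytoplasmic replicate 1 (adjusted p = 0.11) or 3 (adjusted p = 0.14), or without JQ1-VHL cytoplasmic replicate 2 (adjusted p = 0.053) or 3 (adjusted p = 0.089). Interval 5 was called higher after rescaling in total (1.96, adjusted p = 0.012) and nuclear RNA (2.63, adjusted p = 0.0007), and interval 6 in nuclear RNA (3.09, adjusted p = 0.0019). The shares of all intervals called higher there were 11.5% in total and 23.8% in nuclear RNA.

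The partners of the NFE2L factors were read from a list of 6 genes, of which 4 were tested and NFE2 and BACH2 were not analysed here. BACH1, a repressor that competes with NFE2L2 for the same sites, was lower in nuclear RNA (107 ± 45.0 to 16.5 ± 8.99 units, log2 change -2.74, adjusted p = 0.022). After rescaling BACH1 was lower in all 3 fractions, by -1.32, -0.95 and -1.41 in total, nuclear and cytoplasmic RNA (adjusted p = 0.0085, 0.04 and 0.005). Among the small MAF genes, MAFF was lower in nuclear RNA (-3.24, adjusted p = 0.019; -2.24 after rescaling, adjusted p = 0.11). MAFK was lower in cytoplasmic RNA (-3.38, adjusted p = 0.027; -3.16 after rescaling, adjusted p = 0.0062), and MAFG passed in no fraction on either scale. On the ERCC scale 2 of the 4 partners were thus called lower in nuclear and 1 in cytoplasmic RNA, beside 33.7% and 3.67% of all genes. With rescaling 1 was lower in total, 1 in nuclear and 2 in cytoplasmic RNA, beside 18.4%, 12.6% and 15.9% of all genes. The median change of the 4 partners was -0.99 in total, -2.41 in nuclear and -1.77 in cytoplasmic RNA, against the medians of all genes given above.

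All 12 genes listed as regulators of the factors were tested, and 3 were lower in nuclear RNA on the ERCC scale, a share below the 33.7% of all genes called lower there. They were KEAP1, which targets NFE2L2 for degradation (-2.38, adjusted p = 0.026), RBX1, a subunit of the ubiquitin ligase that KEAP1 serves (-2.72, adjusted p = 0.037), and VCP (-3.01, adjusted p = 0.0045). VCP was also lower in all 3 fractions after rescaling (-1.64, -1.14 and -1.37, adjusted p = 0.0021, 0.012 and 0.0045), while the nuclear changes of KEAP1 (-0.52, adjusted p = 0.48) and RBX1 (-1.13, adjusted p = 0.2) then missed the threshold. KEAP1 in cytoplasmic RNA was at -2.50 on the ERCC scale (adjusted p = 0.077) and -2.44 after rescaling (adjusted p = 0.0032). GSK3B, a kinase that marks NFE2L2 for degradation by another ligase, was higher in all 3 fractions after rescaling (0.85, 1.35 and 0.83, adjusted p = 0.031, 0.0018 and 0.035). Before rescaling its values were 0.55, -0.51 and 0.76 (adjusted p = 0.89, 0.57 and 0.88), with the opposite sign in the nucleus. BTRC in cytoplasmic RNA was at 0.81 on the ERCC scale (adjusted p = 0.88) and called higher after rescaling (0.88, adjusted p = 0.022). With rescaling 1 of the 12 was higher and 1 lower in total RNA, beside 12.2% and 18.4% of all genes. The nucleus also had 1 higher and 1 lower (18.2% and 12.6%), and the cytoplasm 2 higher and 2 lower (14.8% and 15.9%). The median nuclear change of the 12 was -1.80, next to -1.82 for all genes.

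Of 32 antioxidant and detoxifying genes listed as targets of the family, 23 were tested and 9 were lower in nuclear RNA on the ERCC scale, against 33.7% of all genes. Falls were largest in SLC7A11, the cystine transporter (91.9 ± 32.4 to 4.48 ± 1.74 units, log2 change -4.07, adjusted p = 0.005), GCLM, a subunit of the enzyme that starts glutathione synthesis (-3.48, adjusted p = 0.011), OSGIN1 (-3.33, adjusted p = 0.013) and MGST1, a glutathione transferase (-3.07, adjusted p = 0.0078). BLVRB, a biliverdin reductase, was also lower (-2.70, adjusted p = 0.014). After rescaling, the nuclear calls of OSGIN1 (-1.53, adjusted p = 0.042) and BLVRB (-0.84, adjusted p = 0.016) were kept. Those of SLC7A11 (-2.38, adjusted p = 0.075), GCLM (-1.83, adjusted p = 0.091) and MGST1 (-1.23, adjusted p = 0.14) were lost. GCLM was also lower in total RNA (-3.80, adjusted p = 0.025) and OSGIN1 in cytoplasmic RNA (-5.10, adjusted p = 0.00065). After rescaling 5 of the 23 were higher and 3 lower in each fraction, beside 12.2% to 18.2% of all genes higher and 12.6% to 18.4% lower over the 3 fractions. PGD and TALDO1, enzymes of the pentose phosphate pathway, and PRDX1, a peroxiredoxin, were higher in all 3, with nuclear changes of 1.64 for PGD (adjusted p = 8.9e-06) and 1.30 for PRDX1 (adjusted p = 9.6e-05). Their nuclear values on the ERCC scale were negative and missed the threshold, at -0.24 for PGD, -0.67 for TALDO1 and -0.57 for PRDX1 (adjusted p = 0.77, 0.45 and 0.51). The median change of the list was 0.06, -1.65 and 0.41 in total, nuclear and cytoplasmic RNA on the ERCC scale.

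Of 31 proteasome subunit genes, 25 were tested and 5 were lower in nuclear RNA on the ERCC scale, a share below the 33.7% of all genes. They were PSMC1 (-3.02, adjusted p = 0.0084), PSMB7 (-3.00, adjusted p = 0.0066), PSMC4 (-2.87, adjusted p = 0.016), PSMB2 (-2.67, adjusted p = 0.031) and PSMA7 (-2.41, adjusted p = 0.022). After rescaling the nuclear calls of PSMC1 (-1.20, adjusted p = 0.088), PSMB2 (-1.08, adjusted p = 0.28) and PSMA7 (-0.56, adjusted p = 0.33) were lost, and that of PSMC4 was kept (-1.05, adjusted p = 0.023). PSMB7, a catalytic subunit, was lower in all 3 fractions after rescaling (-1.60, -1.16 and -1.77, adjusted p = 0.0024, 0.012 and 0.0009). PSMA4, an example of the genes called higher, rose in all 3 after rescaling (0.89, 0.90 and 0.73, adjusted p = 0.0073, 0.0052 and 0.018). On the ERCC scale PSMA4 had 0.59, -0.96 and 0.67 (adjusted p = 0.89, 0.31 and 0.89). After rescaling 10 of the 25 were higher and 6 lower in total RNA, where 12.2% and 18.4% of all genes were. The nucleus had 8 higher and 2 lower (18.2% and 12.6% of all genes), and the cytoplasm 8 higher and 5 lower (14.8% and 15.9%). The median nuclear change of the list was -1.57 on the ERCC scale and 0.26 after rescaling, next to -1.82 and -0.01 for all genes.

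Of 7 genes related to HNRNPA2B1 or lying beside the members, CBX1, CBX3, CBX5 and HNRNPA3 were tested. CBX1, next to NFE2L1, was higher in all 3 fractions after rescaling (1.05, 1.22 and 0.81, adjusted p = 0.0036, 0.00077 and 0.013), where NFE2L1 itself had negative values in each. CBX1 had 0.75, -0.65 and 0.74 on the ERCC scale (adjusted p = 0.8, 0.46 and 0.88). HNRNPA3, next to NFE2L2, had rescaled changes of 0.54, 0.22 and 0.48 (adjusted p = 0.032, 0.37 and 0.052), and 0.24, -1.65 and 0.41 on the ERCC scale (adjusted p = 0.96, 0.091 and 0.92). HNRNPA0 and HNRNPA1 were not analysed here.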

How the data were processed

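SLAM-seq libraries of MDA-MB-453 RNA were read from 1 deposited table. Its unit is a signal: per the file's name, T-to-C read counts per interval, which the authors divided by an ERCC factor for each library. Per the submitters' processing notes, Trimmomatic 0.39, HISAT2, HTSeq, DESeq2, bcl2fastq and the builds GRCh37/hg19 and dm3 were used, with no roles given. How T-to-C reads were called, how they were counted and on which strand are not given in the sources used here.

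The table holds 98665 intervals of 12755 gene IDs, 11858 of them matched to a symbol. Dividing a library by its smallest value gave whole numbers for 100% of values (tolerance 0.01), so read counts could be recovered from the deposited signal. Libraries held 1.58 to 6.77 M recovered reads. No molecular identifiers are named, so reads may not be independent molecules.

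Interval values were summed per gene ID, and 10191 IDs with a mean of at least 10 units (99.8% of the summed value) were tested. Fits used log2(value + 1), which understates changes of low genes, with 6 group means in limma 3.58.1 (R 4.3.3; trend, robust; 12 residual degrees of freedom; an infinite prior on the ERCC scale, 6.74 after rescaling) and Benjamini-Hochberg adjustment at 0.05. Rescaling used medians of ratios over 7799 genes above 0 in every library. Intervals (48618 tested) were fitted likewise, and single ratios were tested by exact permutation. Alternatives were edgeR 4.0.16 and DESeq2 1.42.0 on recovered reads, other pseudocounts and filters, the highest interval in place of the sum, each library left out, and the replicate number as a block. The fit was also run on simulated reads with set changes in JQ1-VHL nuclear RNA alone. These held no shift common to all genes and no error in the library factors, so they do not test the choice of scale. Python 3.11.15 drew the figures.

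The batch number that the labels give matches the replicate number of every library, which pairs DMSO with JQ1-VHL libraries. Deviations of same-numbered libraries from their group means correlated at 0.22, 0.08 and 0.16 in total RNA, at 0.27, -0.14 and 0.29 in nuclear RNA and at 0.06, -0.05 and 0.02 in cytoplasmic RNA.

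The members and gene lists were chosen with earlier results of these data known. Of the lists, all tested partners, regulators and neighbours could be named, and of targets and proteasome genes the 6 with the largest called changes in each direction. One gene that this rule names is not reported here.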

Additional observations from a re-analysis of the deposited data

Results flagged for a closer look

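The drug effect on NFE2L2 differed between nucleus and cytoplasm in the test of the difference itself, on the rescaled values and not on the ERCC scale. After rescaling, the nuclear minus the cytoplasmic log2 change was 3.54 (adjusted p = 0.00065 by limma), and without each library in turn it ranged from 3.29 to 3.89. On the ERCC scale the same difference was 1.74 (adjusted p = 0.39), which missed the threshold.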

How the results depend on the processing

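Counts of calls moved with the scale and with single libraries. On the ERCC scale 309 genes were called in total, 3453 in nuclear and 397 in cytoplasmic RNA, 2103 and 3245 for nuclear against cytoplasmic RNA under DMSO and JQ1-VHL, and 2108, 11001 and 1382 intervals. After rescaling, the counts were 3121 in total and 3134 in cytoplasmic RNA, 288 for the nuclear minus cytoplasmic effect, 5785 and 6592 for the fractions under DMSO and JQ1-VHL, and 11257 and 9401 intervals in total and cytoplasmic RNA. In the same order of genes, edgeR with TMM called 3809, 2987, 345, 6084 and 6427, and DESeq2 called 4223, 3625, 963, 6389 and 6891. edgeR with ERCC factors called 241 in cytoplasmic RNA. A pseudocount of 0.1 gave 61 genes in total RNA, a pseudocount of 10 gave 511 in total and 169 in cytoplasmic RNA, and no filter gave 630 in total. The highest interval in place of the sum gave 643 in total RNA, 3 for the nuclear minus cytoplasmic effect and 3802 for the fractions under DMSO. The replicate block (pairing by batch number) gave 583 in total, 619 in cytoplasmic RNA, 8 for the nuclear minus cytoplasmic effect, and 3938 and 2242 intervals in total and cytoplasmic RNA; it changed no other call of the 4 genes than those given above. A filter on a mean of at least 1 gave 7959, 26351 and 2221 intervals. Leaving out 1 library gave 18 to 236 genes in total, 239 to 4150 in nuclear, 74 to 1287 in cytoplasmic RNA, 0 to 106 for the nuclear minus cytoplasmic effect, 876 to 2747 and 2406 to 3096 for the fractions, and 118 to 2141, 770 to 12964 and 159 to 3614 intervals.

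Directions turned as follows, and the cause was not tested. HNRNPA2B1 in nuclear RNA was 0.91 after rescaling, 0.73 with edgeR and TMM and 0.92 with DESeq2, and its intervals 2, 4, 5 and 6 there were 0.87, 1.21, 1.30 and 1.13 after rescaling. The nuclear minus cytoplasmic effect was 0.48, 0.22 and 0.43 for NFE2L1 under the same 3 settings, and 0.33 after rescaling and 0.13 with DESeq2 for NFE2L3. NFE2L2 nuclear against cytoplasmic RNA under DMSO was -0.071 after rescaling, -0.0082 and -0.12 with edgeR (TMM, ERCC) and -0.14 with DESeq2, and ranged from -0.67 to 0.58 without 1 library. Without 1 library, NFE2L1 nuclear against cytoplasmic RNA under JQ1-VHL ranged from -0.20 to 0.73, nuclear NFE2L2 from -0.17 (no JQ1-VHL nuclear replicate 2) to 1.23, and HNRNPA2B1 interval 2 in total RNA from -0.0098 to 1.04. In the rescaled fits without 1 library, added after seeing the data, the nuclear minus cytoplasmic effect ranged from -0.11 to 0.73 for NFE2L3 and from -0.19 to 0.073 for HNRNPA2B1. The rises of NFE2L3 in all fractions and of its ratio to HNRNPA2B1 kept their direction under every alternative run. Depth limits cytoplasmic NFE2L3 under DMSO, at 5 to 8 reads a library.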

Other observations

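The tested genes whose rescaled values were most like those of each member were found by Pearson correlation over the 18 libraries. These share treatment and depth and pool the fractions, so the values here and between members are descriptions and not drug effects alone. For NFE2L3 they were H4C8, a histone H4 gene (0.98), C12orf57 (0.97) and LHFPL4 (0.97), with rescaled nuclear log2 changes of 3.99, 3.91 and 4.78 next to 4.82 for NFE2L3. For NFE2L1 they were MBNL1, a splicing regulator (0.96), BCL9L, a Wnt coactivator (0.96), and RBIS (0.95). For NFE2L2 they were NAA25 (0.92), ZNF689 (0.90) and FAM193A (0.90), of which ZNF689 had rescaled changes of 1.83 in nuclear and -2.21 in cytoplasmic RNA. For HNRNPA2B1 they were RBBP4, a histone-binding protein (0.99), CAP1, an actin regulator (0.99), and JPT2 (0.99). Between members, NFE2L1 and HNRNPA2B1 had a correlation of -0.90, NFE2L2 and NFE2L3 of 0.59, and NFE2L1 and NFE2L2 of 0.24.

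Of the 8 luminal markers, 2 were called lower in total, 4 in nuclear and 1 in cytoplasmic RNA on the ERCC scale. The shares of all genes called lower there were 2.79%, 33.7% and 3.67%. After rescaling 3 were higher and 4 lower in total RNA (12.2% and 18.4% of all genes) and likewise in nuclear RNA (18.2% and 12.6%). In cytoplasmic RNA 4 were then lower (15.9%). FOXA1, a pioneer factor of luminal cells, was lower under JQ1-VHL in total RNA (685 ± 562 to 39.0 ± 11.1 units, log2 change -3.84, adjusted p = 0.0074) and in cytoplasmic RNA (-4.40, adjusted p = 0.00054). SPDEF, another luminal transcription factor, was lower in total RNA (-4.35, adjusted p = 0.00089). The keratin gene KRT8 was at 0.70 in total RNA (adjusted p = 0.82), ERBB2 at 0.62 (adjusted p = 0.86) and KRT18 at 0.31 (adjusted p = 0.94). With rescaling these 3 were called higher there by limma (1.00, 0.92 and 0.61, adjusted p = 0.024, 0.04 and 0.047). FOXA1 and SPDEF stayed lower there (-3.54 and -4.05, adjusted p = 0.0017 and 1.8e-05).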
